A study of Mus musculus with 12 samples.

Results

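The 6 genes described here, Cebpa, Cebpb, Cebpd, Cebpe, Cebpg and Cebpz, carry the symbols of the C/EBP (CCAAT/enhancer-binding protein) family and were followed in the cochlea, the part of the inner ear that senses sound, after 30 minutes of noise. They were taken by symbol from 35496 genes of a read count table, and all 6 are among the 19497 genes that passed the filter on low counts. The mice were of the inbred FVB/NCrl strain, 60 days old, awake during the exposure, and no transgene, deletion or drug is recorded for any group. The groups were held at 70 dB SPL (sound pressure level in decibels), which is the ambient control, at 94 dB SPL or at 105 dB SPL, with 4 RNA-seq libraries in each. Cochlear RNA was collected as soon as the exposure ended, so that every level is a first reading at the end of the noise. Neither the sex of the mice nor the number of animals behind a library is in the labels, and p-values therefore measure the spread between these libraries, which may be technical. The family was chosen by its fold changes against 70 dB in these same libraries, so those fold changes are given as a description. The comparison of 105 dB with 94 dB uses the same 94 dB libraries, and genes chosen as high in them tend to come out lower at 105 dB, so its adjusted p-values are printed as computed but are not independent of the choice.

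C/EBP proteins are basic leucine zipper (bZIP) transcription factors, which bind DNA as dimers with one another or with other bZIP proteins. C/EBP alpha drives the maturation of adipocytes, granulocytes and hepatocytes, and C/EBP epsilon the late steps of granulocyte maturation. C/EBP beta and C/EBP delta are switched on quickly by cytokines, cyclic AMP or glucocorticoids and act on acute phase and inflammatory genes, and the single-exon mRNA of C/EBP beta yields activating and inhibitory proteins from alternative start codons. C/EBP gamma lacks the activation domain and works as a dimer partner of other bZIP factors. Cebpz, despite its symbol, encodes a CCAAT-binding factor without a leucine zipper that is known for its part in nucleolar ribosome assembly.

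The genes differ in structure in ways that bear on how they are counted. Cebpb (ENSMUSG00000056501, chr2:167688915-167690418, plus strand of mm10) and Cebpd (ENSMUSG00000071637, chr16:15887286-15891031, plus strand) have 1 exon each, of 1504 and 3746 bases. Cebpa (ENSMUSG00000034957, chr7:35119293-35121928, plus strand) also has 1 exon, of 2636 bases, and Cebpe (ENSMUSG00000052435, chr14:54710360-54712174, minus strand) has 2, with 1241 bases in all. Cebpg (ENSMUSG00000056216, chr7:35046422-35056573, minus strand) lies 62719 bases from Cebpa, with 3 exons and 5621 exon bases, and Cebpz (ENSMUSG00000024081, chr17:78919006-78937066, minus strand) has 16 exons and 4658 exon bases. Exons are those of all transcripts merged. The transcripts of Cebpb, Cebpa and Cebpe are rich in G and C, at 67.2%, 62.6% and 61.5%, above those of 99.8%, 98.6% and 97.9% of tested genes. Cebpd stands near the middle at 51.6%, and Cebpz and Cebpg are low at 43.4% and 43.3%, against a median of 49.6% over tested genes.

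The sequence around the annotated start was at hand for 3 members, Cebpa, Cebpb and Cebpg, as RefSeq windows of 300 bases in GRCm38.p6, the assembly that mm10 names. They are shown because Cebpb is the member with the largest difference from 70 dB and the other 2 serve as a comparison within the family. Each runs from 250 bases before the start to 50 bases after it on the gene's own strand, at chr7:35119043-35119342 (plus) for Cebpa, chr2:167688665-167688964 (plus) for Cebpb and chr7:35056517-35056816 (minus) for Cebpg. Capitals mark TGACG, the core of the cyclic AMP response element, in either direction (CGTCA on the strand shown), and TATAAA.
Cebpb: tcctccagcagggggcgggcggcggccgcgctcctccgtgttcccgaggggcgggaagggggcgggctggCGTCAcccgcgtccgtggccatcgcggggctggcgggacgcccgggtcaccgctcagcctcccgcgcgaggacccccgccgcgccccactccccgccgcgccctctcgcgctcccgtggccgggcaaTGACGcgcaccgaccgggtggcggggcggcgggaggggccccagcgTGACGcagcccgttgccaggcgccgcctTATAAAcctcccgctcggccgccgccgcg
Cebpa: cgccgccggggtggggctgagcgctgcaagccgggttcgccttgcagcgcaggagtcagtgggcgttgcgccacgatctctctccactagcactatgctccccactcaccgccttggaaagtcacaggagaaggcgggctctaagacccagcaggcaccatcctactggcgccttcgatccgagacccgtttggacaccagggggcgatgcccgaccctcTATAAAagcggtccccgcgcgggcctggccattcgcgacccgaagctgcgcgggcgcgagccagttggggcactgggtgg
Cebpg: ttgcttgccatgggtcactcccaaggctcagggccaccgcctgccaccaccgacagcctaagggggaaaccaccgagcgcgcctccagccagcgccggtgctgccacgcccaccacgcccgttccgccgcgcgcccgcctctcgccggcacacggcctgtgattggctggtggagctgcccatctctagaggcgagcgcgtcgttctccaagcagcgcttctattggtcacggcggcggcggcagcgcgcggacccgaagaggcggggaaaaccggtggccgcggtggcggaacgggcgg

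The Cebpb window held 3 copies of TGACG, which began at positions -180, -53 and -7 when the annotated start is counted as position 0, and at least 3 occurred in 1.03% of all 32851 windows of this length. At least 1 occurred in 20.8% of windows, and the Cebpa and Cebpg windows had none. TATAAA began at position 21 in Cebpb and at -30 in Cebpa, and occurred on the gene's strand in 8.32% of windows. The Cebpg window had 2 CCAAT boxes (CCAAT in either direction, 37.4% of windows), at -89 and -28. Of GC boxes (GGGCGG in either direction, 35.7% of windows), Cebpb had 5 and Cebpg 1. The C/EBP site TTNNGCAA (10.8% of windows), the AP-1 site TGANTCA (7.81%), the STAT site TTCNNNGAA (8.30%) and the full element TGACGTCA (1.79%), each searched on both strands, were not in these 3 windows. The windows themselves were 80.7% GC in Cebpb, 71.7% in Cebpg and 67.3% in Cebpa, against a median of 52.7%. A match is a string of letters and does not show binding.

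Total counts ran from 31141706 to 42317781 in the 70 dB libraries, 32302796 to 38733490 at 94 dB and 32057388 to 40239711 at 105 dB. Each member had 554 to 6277 reads per library. Features of the whole series touch the values below. Replicates 3 and 4 of the 94 dB group stood apart, with 2.68% and 2.73% of counts in mitochondrially encoded genes, against 3.53% and 3.59% in their group. This share was 5.08% to 5.68% at 70 dB and 4.43% to 5.35% at 105 dB, so that every 94 dB library was below both other groups. The haemoglobin genes of 94 dB replicates 3 and 4 took 2.90% and 2.95%, against 1.75% and 2.07% in the rest of their group. At 105 dB they took 2.05% to 2.89%, with replicate 3 of that group close to the pair. Also, fold changes at 94 dB followed the GC content of the gene, with Spearman's rho 0.456 across 19484 genes for 94 dB against 70 dB, -0.455 for 105 dB against 94 dB and 0.09 for 105 dB against 70 dB. Without 94 dB replicates 3 and 4, rho was still 0.364 for 94 dB against 70 dB and -0.364 for 105 dB against 94 dB. Genes are not independent replicates, and these are descriptions. Member values are therefore also given after each library was freed of a smooth dependence on GC content and exon length, and these values are called trend-removed.

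All members were expressed under ambient sound, and for their length the libraries of the highest and lowest member did not overlap. Levels between genes are compared as TMM-scaled CPM (counts-per-million, with library sizes scaled by edgeR's TMM factors) per kilobase of merged exon, mean ± SD over 4 libraries. At 70 dB the order was Cebpe (18.2 ± 2.38), Cebpb (15.2 ± 2.69), Cebpa (14.4 ± 1.51), Cebpd (10.5 ± 1.68), Cebpg (9.90 ± 1.02) and Cebpz (9.76 ± 0.78), and the libraries of each neighbouring pair overlapped. After 94 dB Cebpb led with 93.4 ± 24.1, clear of Cebpe at 35.3 ± 8.53, while Cebpe, Cebpd (32.03 ± 13.1) and Cebpa (25.8 ± 2.31) overlapped in turn and Cebpg (11.2 ± 0.74) and Cebpz (8.23 ± 0.67) each stood below the gene before it. After 105 dB Cebpb led again with 64.3 ± 5.82, followed without overlap by Cebpe at 22.6 ± 2.93. Cebpa (18.4 ± 1.78) and Cebpd (17.7 ± 0.81) overlapped, as did Cebpg (11.4 ± 0.20) and Cebpz (11.03 ± 0.34). At both noise levels Cebpb was thus the highest of the 6 for its length. In whole tissue, more cells of a type and more RNA per cell cannot be told apart, here or in the results that follow.

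**Figure D1:**
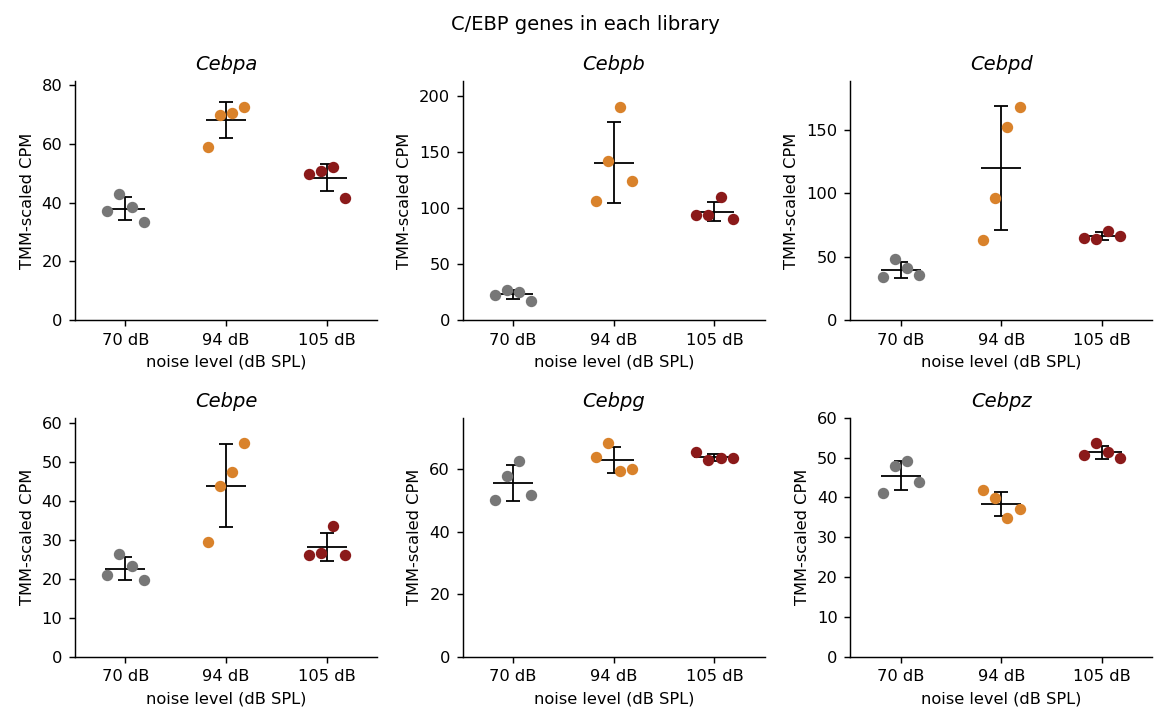
TMM-scaled CPM (vertical axes, from 0) of each C/EBP gene in the 4 libraries of the 70, 94 and 105 dB groups, in order of noise level. Points are libraries, offset by replicate number, and the black marks are the mean ± SD. Cebpb lies between 17.4 and 26.7 CPM at 70 dB and at 89.9 CPM or more in every noise library, whereas Cebpg and Cebpz stay within 34.7 to 68.4 CPM throughout.

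Cebpb showed the largest difference from ambient sound in the family at both noise levels. Its level was 22.7, 26.7, 24.9 and 17.4 CPM in the 70 dB libraries, 106.3, 141.6, 190.3 and 123.6 CPM at 94 dB, and 93.5, 93.8, 109.6 and 89.9 CPM at 105 dB. Every noise library stood above every 70 dB library, while the 94 and 105 dB libraries overlapped through 94 dB replicate 1 and 105 dB replicate 3. The fitted difference was 6.12-fold at 94 dB against 70 dB (log2 2.61, SE 0.18) and 4.21-fold at 105 dB against 70 dB (log2 2.07, SE 0.18). Trend-removed, they were 4.15-fold (log2 2.05) and 3.96-fold (log2 1.98). Without 94 dB replicates 3 and 4 the 94 dB difference was log2 2.44.

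Cebpd was also higher in every noise library than in every 70 dB library, but its 94 dB libraries were widely spread. The 70 dB libraries had 34.1, 47.8, 40.8 and 35.2 CPM, the 94 dB libraries 63.1, 96.2, 152.4 and 168.2 CPM, and the 105 dB libraries 64.4, 63.8, 70.5 and 66.0 CPM. The highest values were those of 94 dB replicates 3 and 4, the libraries that stand apart, and the 105 dB libraries were close together. The fitted difference was 3.04-fold at 94 dB against 70 dB (log2 1.60, SE 0.27) and 1.68-fold at 105 dB against 70 dB (log2 0.75, SE 0.27), and only the 94 dB one passed the threshold. Without those 2 libraries the values were log2 1.02 (SE 0.16) and 0.75 (SE 0.13), and both passed. Removing the GC and length trend left them at 1.58 and 0.76.

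Cebpa, the adipocyte and granulocyte factor, had 37.3, 43.0, 38.5 and 33.3 CPM at 70 dB, 59.1, 70.0, 70.5 and 72.7 CPM at 94 dB, and 49.6, 50.9, 52.1 and 41.7 CPM at 105 dB. All 94 dB libraries lay above all others, and at 105 dB replicate 4 fell below the highest 70 dB library. The difference was 1.79-fold at 94 dB against 70 dB (log2 0.84, SE 0.09), which passed the threshold, and 1.28-fold at 105 dB against 70 dB (log2 0.35, SE 0.09), which did not. Trend-removed, the 94 dB value was log2 0.49, which also passed, and the 105 dB value 0.33.

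Cebpe, the granulocyte factor, had 21.01, 26.4, 23.2 and 19.6 CPM at 70 dB, 29.5, 43.9, 47.4 and 54.7 CPM at 94 dB, and 26.2, 26.6, 33.5 and 26.0 CPM at 105 dB. The 94 dB libraries lay above all 70 dB libraries, with replicate 1 close to them, and the 105 dB libraries overlapped both groups. The difference was 1.94-fold at 94 dB against 70 dB (log2 0.96, SE 0.16), past the threshold, and 1.24-fold at 105 dB against 70 dB (log2 0.31, SE 0.16), not past it. Trend-removed, they were log2 0.54, which also passed, and 0.21. The 94 dB call was lost, at log2 0.44, when the trend and 94 dB replicates 3 and 4 were both taken out.

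Markers of blood and fat cells also varied among the 94 dB libraries. The summed level of 13 neutrophil markers, led by S100a9 and Ngp and all present in these libraries, was 8041 to 10010.0 CPM at 70 dB, 8281, 12244, 12668 and 16143 CPM in 94 dB replicates 1 to 4, and 8899 to 10502 CPM at 105 dB. The 94 dB values run in the same order as those of Cebpe over the 4 libraries, an order that Cebpa, Cebpd and Tmem189, a gene outside the family, share. Of the cell types in which Cebpa is known, the sum of 8 adipocyte markers was 155.9, 166.4, 125.1 and 269.5 CPM in the 94 dB libraries, against 114.4 to 181.8 CPM at 70 dB, and that of 10 macrophage markers was 644.9 to 814.6 CPM at 94 dB, against 535.8 to 621.5 CPM at 70 dB. At 105 dB these sums were 126.3 to 214.0 CPM and 575.7 to 636.7 CPM. Of the 10 macrophage markers, 5 were higher and 1 lower at 94 dB, where 26.1% of all genes passed. Trend-removed, 3 were higher and 1 lower, where 16% of all genes passed. Of the 8 adipocyte markers 7 averaged over 1 CPM, and the lowest, Lep, averaged 0.40 CPM. Their part in the Cebpa, Cebpd and Cebpe values was not tested. Markers of the cochlea itself were present, led by Coch in fibrocytes (6554 CPM) and Gjb2 in supporting cells (650.9 CPM). The sum of 10 hair cell markers was 135.9 to 156.3 CPM at 70 dB, 145.3 to 149.6 CPM at 94 dB and 137.0 to 147.6 CPM at 105 dB. Of these markers 9 averaged over 1 CPM, and the lowest, Slc26a5, averaged 0.31 CPM. The sum of 10 supporting cell markers was 1027 to 1082 CPM at 70 dB, 813.3 to 917.0 CPM at 94 dB and 984.3 to 1026 CPM at 105 dB, and that of 9 stria vascularis markers 1436 to 1549 CPM, 1275 to 1422 CPM and 1414 to 1471 CPM at the same levels. Both sums were thus lower in every 94 dB library than in every 70 dB library, but they are led by a few abundant genes and keep the trend. Gene by gene, 4 of the 10 supporting cell markers were lower and 2 higher at 94 dB. Of the 9 stria markers, 2 were lower and 7 did not pass, where 26.1% of all genes passed. Trend-removed, 3 supporting cell markers were lower and 2 higher, and 1 stria marker was lower and 1 higher, where 16% of all genes passed.

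Cebpg and Cebpz had the smallest differences from ambient sound. Cebpg had 50.2, 57.9, 62.7 and 51.9 CPM at 70 dB, 64.1, 68.4, 59.4 and 60.1 CPM at 94 dB, and 65.5, 62.9, 63.6 and 63.6 CPM at 105 dB. The 94 dB libraries overlapped the 70 dB ones, and the 105 dB libraries lay just above all of them. The fitted values were log2 0.18 (SE 0.07) at 94 dB and 0.20 (SE 0.07) at 105 dB, and neither passed. Trend-removed, the 94 dB value was log2 0.36 and passed, and the trend itself stood at -0.18 for a gene of its GC content and length.

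Cebpz had 41.1, 47.8, 49.0 and 43.8 CPM at 70 dB, 41.8, 39.8, 34.7 and 37.0 CPM at 94 dB, and 50.6, 53.6, 51.4 and 49.9 CPM at 105 dB. It was the one member lower at 94 dB than at 70 dB, with 1 of the 94 dB libraries inside the 70 dB range, and at 105 dB all libraries lay above both other groups. The 94 dB value, log2 -0.25 (SE 0.07), passed the threshold. Trend-removed it was -0.081 and without 94 dB replicates 3 and 4 it was -0.15, and neither passed. The 105 dB value against 70 dB was log2 0.18 (SE 0.07) and did not pass.

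At the threshold of 0.05 on the edgeR adjusted p, 4 of the 6 members were higher and 1 was lower at 94 dB against 70 dB, where 26.1% of all tested genes passed, 13.9% higher and 12.2% lower. Trend-removed, 5 were higher, where 16% of all genes passed, 10.2% higher and 5.84% lower. At 105 dB against 70 dB 1 member passed, Cebpb, on the higher side, where 1.62% of all genes passed, 1.11% higher and 0.508% lower. Trend-removed, again only Cebpb passed at 105 dB, where 2.1% of all genes did, 1.59% higher and 0.513% lower. The libraries of 4 members did not overlap between the groups at 94 dB and those of 4 at 105 dB, with 25.4% and 10.8% of all genes in that state. These contrasts chose the family, and nothing is read from the counts.

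**Figure D2:**
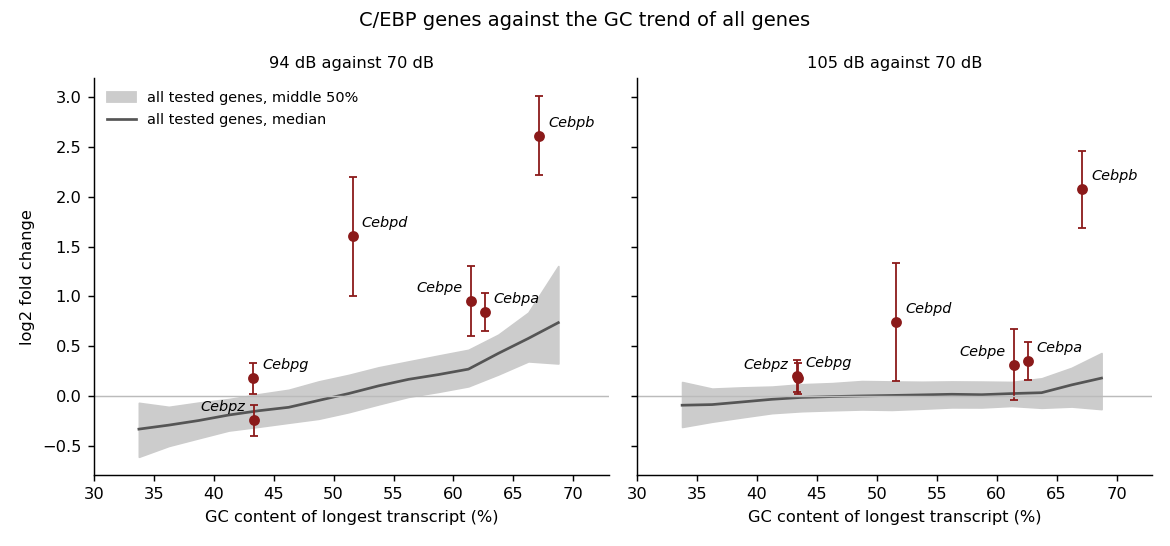
Log2 fold change (vertical axis) against GC content of the longest transcript in percent (horizontal axis) for 94 dB against 70 dB (left) and 105 dB against 70 dB (right). Red points are the C/EBP genes with 95% intervals, the grey line is the median of all tested genes in bins of GC content, and the band holds their middle 50%. At 94 dB the median of all genes climbs with GC content, and the C/EBP genes lie above the band except Cebpz, which lies inside it.

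Set directly against each other, with the limit that the 94 dB libraries took part in the choice of the family, the noise levels gave a difference past the threshold for 5 of the 6 members, of which 4 were lower at 105 dB than at 94 dB and 1 was higher, where 17.3% of all genes passed, 9.23% lower and 8.06% higher. Cebpe averaged 28.1 ± 3.63 CPM at 105 dB and 43.9 ± 10.6 CPM at 94 dB (SD, n = 4 each), a log2 difference of -0.64 (95% interval -0.99 to -0.29, edgeR adjusted p = 0.0175). Cebpa averaged 48.6 ± 4.69 CPM at 105 dB and 68.1 ± 6.09 CPM at 94 dB, with no overlap, log2 -0.49 (-0.68 to -0.30, edgeR adjusted p = 0.00319). Cebpz ran the other way, with 51.4 ± 1.60 CPM at 105 dB and 38.3 ± 3.11 CPM at 94 dB and no overlap, log2 0.42 (0.27 to 0.58, edgeR adjusted p = 0.00247). These were the 2 members whose groups did not overlap between 105 and 94 dB, a state shared by 21.3% of all tested genes. Nothing is read from that count.

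Cebpb and Cebpd passed by a narrow margin. Cebpb averaged 96.7 ± 8.75 CPM at 105 dB and 140.4 ± 36.2 CPM at 94 dB, log2 -0.54 (-0.91 to -0.17, edgeR adjusted p = 0.0477). Cebpd averaged 66.2 ± 3.03 CPM at 105 dB and 120.0 ± 48.9 CPM at 94 dB, log2 -0.86 (-1.44 to -0.27, edgeR adjusted p = 0.0497). In both, 94 dB replicate 1 lay within or below the 105 dB range, and so did no other 94 dB library. For Cebpg the difference was log2 0.02 (-0.13 to 0.18, edgeR adjusted p = 0.879), an interval that leaves out differences larger than 0.18 on the log2 scale in either direction.

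The 4 lower values at 105 dB did not keep their calls once the trend was removed. Trend-removed, the difference was log2 -0.068 for Cebpb (-0.36 to 0.23, edgeR adjusted p = 0.81), -0.16 for Cebpa (-0.35 to 0.03, edgeR adjusted p = 0.289), -0.32 for Cebpe (-0.59 to -0.05, edgeR adjusted p = 0.126) and -0.81 for Cebpd (-1.41 to -0.21, edgeR adjusted p = 0.0891). Cebpz kept its call at log2 0.31 (edgeR adjusted p = 0.00941), where 9.39% of all genes passed, 4.64% higher and 4.75% lower. Without 94 dB replicates 3 and 4, none of the 5 passed in edgeR, with log2 -0.36 for Cebpb, -0.41 for Cebpa, -0.39 for Cebpe, -0.27 for Cebpd and 0.33 for Cebpz, and 1.07% of all genes passed.

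**Figure D3:**
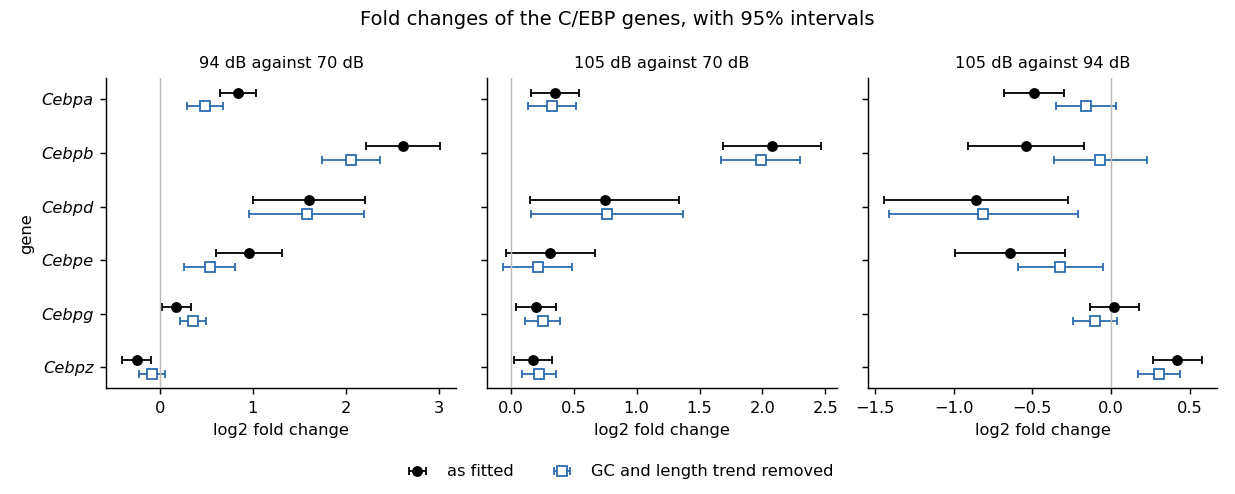
Log2 fold change (horizontal axes) of each C/EBP gene for 94 dB against 70 dB, 105 dB against 70 dB and 105 dB against 94 dB. Black circles are the values as fitted, blue open squares those with the GC and length trend removed, and bars are 95% intervals. In the right panel Cebpb stands at -0.54 as fitted and -0.068 with the trend removed, and Cebpd at -0.86 and -0.81.

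Cebpb and Cebpd each share exon sequence with a gene on the opposite strand, and the strand setting of the counting is not given in the sources used here, so reads there cannot be told apart. Tmem189, which encodes the desaturase that makes plasmalogen lipids, runs on the minus strand at chr2:167642608-167689822 and shares 312 bases, or 20.7% of the exon bases of Cebpb. It averaged 70.0 ± 3.28 CPM at 70 dB, 79.3 ± 5.23 CPM at 94 dB and 66.6 ± 2.69 CPM at 105 dB. The difference was 1.13-fold at 94 dB (log2 0.18) and 0.951-fold at 105 dB (log2 -0.07), beside 6.12-fold and 4.21-fold for Cebpb. The 94 dB value of Tmem189 passed by edgeR with an adjusted p of 0.0494 and was log2 0.04, and not past the threshold, trend-removed.

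Spidr, which encodes a scaffold protein of DNA repair, runs on the minus strand at chr16:15889224-16146851 and shares 562 bases, or 15.0% of the exon bases of Cebpd. It averaged 14.4 ± 1.21 CPM at 70 dB, 14.3 ± 1.03 CPM at 94 dB and 13.7 ± 1.92 CPM at 105 dB. Its log2 values were -0.01 and -0.07, and neither passed. Cebpzos, on the strand opposite Cebpz with 171 shared exon bases, averaged 3.98 ± 0.33 CPM at 70 dB, 6.25 ± 2.05 CPM at 94 dB and 4.78 ± 0.78 CPM at 105 dB. It passed at 94 dB (log2 0.65) in the direction opposite to Cebpz, and was log2 0.18 and not past the threshold without 94 dB replicates 3 and 4. The predicted transcripts that overlap Cebpa and Cebpg (Gm45091, Gm44836, Gm45094 and Gm45095) averaged at most 0.61 CPM in any group. The nearest counted protein-coding genes on either side of Cebpb beyond Tmem189 were Ube2v1, 56819 bases away, and Ptpn1, which encodes a tyrosine phosphatase, 241638 bases away. Ube2v1 stood at 1.06 CPM at 94 dB and 0.94 CPM at 70 dB. Ptpn1 averaged 88.1 ± 5.08 CPM at 94 dB and 65.8 ± 4.63 CPM at 70 dB (log2 0.42, past the threshold), and 76.2 ± 5.93 CPM at 105 dB (log2 0.21, not past it).

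**Figure D4:**
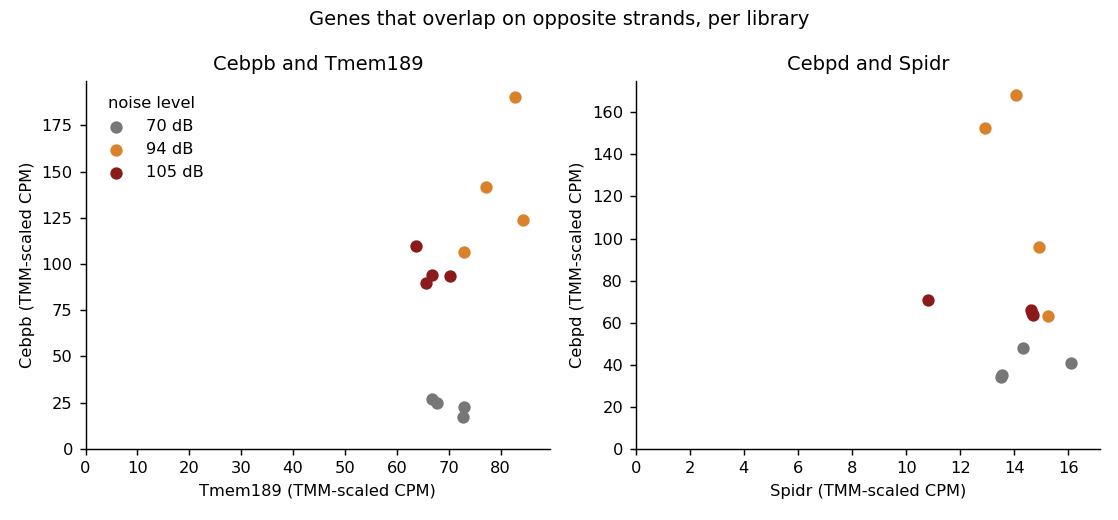
TMM-scaled CPM of Cebpb against Tmem189 (left) and of Cebpd against Spidr (right), the pairs that overlap on opposite strands, with all axes from 0. Each point is 1 library, coloured by noise level. Tmem189 spans 63.8 to 84.3 CPM while Cebpb spans 17.4 to 190.3 CPM, and Spidr spans 10.8 to 16.1 CPM while Cebpd spans 34.1 to 168.2 CPM.

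Among 13976 genes with a mean log2 CPM of at least 1, the profiles nearest to that of Cebpb over the 12 libraries were those of Per1, a light- and stress-responsive clock gene, and Atf3, a stress-induced bZIP repressor. The measure is the root mean square difference in log2 CPM after each gene is centred on its 70 dB mean, and it was 0.32 for Per1 and 0.36 for Atf3. Nr4a1, an immediate early nuclear receptor (0.43), Apold1, an immediate early gene of endothelium (0.43), and Depp1 (0.52) came next. Per1 averaged 47.7 ± 10.6 CPM at 70 dB, 212.3 ± 25.3 CPM at 94 dB and 177.8 ± 15.8 CPM at 105 dB. Atf3 averaged 9.30 ± 3.29 CPM at 70 dB, 46.4 ± 4.97 CPM at 94 dB and 40.3 ± 9.19 CPM at 105 dB. Within the family Cebpd was the most like Cebpb, at place 36 (1.03), followed by Cebpe at 155 (1.42), Cebpa at 168 (1.43), Cebpg at 2517 (1.78) and Cebpz at 8794 (1.99). Because of the centring, nearness largely reflects a similar difference from 70 dB, the kind of value that chose the family. The order is thus a description and does not show shared regulation.

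The possible dimer partners were examined as a list of 29 other bZIP genes, all of which were tested. At 94 dB against 70 dB, 15 were higher and 2 lower, where 13.9% of all genes were higher and 12.2% lower, with a median log2 fold change of 0.34 beside -0.02 for all genes. Trend-removed, 13 were higher and none lower by edgeR, where 10.2% of all genes were higher and 5.84% lower. The median was 0.26 beside 0.0018 for all genes, and 19 of the 29 had an unadjusted p under 0.05. The share of all genes with an unadjusted p under 0.05 was not worked out, here or for the lists below. At 105 dB against 70 dB, 10 were higher and none lower by edgeR, where 1.62% of all genes passed. The median was 0.19 beside 0.00 for all genes. DESeq2 called 11 of the 29, where it called 5.54% of the genes it tested, and 14 had an unadjusted p under 0.05. Junb, an AP-1 subunit, averaged 34.5 ± 3.39 CPM at 70 dB, 95.7 ± 19.1 CPM at 94 dB and 64.3 ± 4.74 CPM at 105 dB, and was lower at 105 dB than at 94 dB (log2 -0.57, edgeR adjusted p = 0.00624), a call lost trend-removed (log2 -0.22, edgeR adjusted p = 0.169). Fosb, another AP-1 subunit, was instead higher at 105 dB than at 94 dB (log2 0.92, edgeR adjusted p = 0.00483), at 7.77 ± 0.85 CPM and 4.11 ± 0.57 CPM, with 1.25 ± 0.47 CPM at 70 dB. Fos stood at log2 2.05 and 2.69 against 70 dB at 94 and 105 dB, and Jun at 0.95 and 0.97. Between 105 and 94 dB 4 of the list were higher and 7 lower (median -0.07), where 17.3% of all genes passed. Trend-removed, 2 were higher and 2 lower (median 0.04), where 9.39% of all genes passed. Without 94 dB replicates 3 and 4, 1 of the list was called between these levels, where 1.07% of all genes were. With 94 dB replicates 3 and 4 left out, 11 passed at 94 dB and 8 at 105 dB, where 7.97% and 1.69% of all genes did. The list was written with earlier results on Fos and Jun genes known.

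The bZIP genes Atf4 and Atf5 of the amino acid response, in which Atf4 works with C/EBP partners, passed at 94 dB. Atf4 averaged 168.2 ± 14.8 CPM at 70 dB, 254.3 ± 7.85 CPM at 94 dB and 236.2 ± 27.9 CPM at 105 dB (log2 0.60 and 0.49, both past the threshold). Atf5 averaged 54.8 ± 2.43 CPM at 70 dB, 88.3 ± 6.44 CPM at 94 dB and 62.7 ± 7.60 CPM at 105 dB (log2 0.69, past the threshold, and 0.19, not past it). Of the 27 genes of that response, 6 were higher and 2 lower at 94 dB, where 26.1% of all genes passed, and 2 were higher at 105 dB, where 1.62% did. The medians were 0.09 and 0.08 beside -0.02 and 0.00 for all genes, and trend-removed the 94 dB median was 0.0013 beside 0.0018. The largest value was that of Ddit4, an inhibitor of mTOR signalling and stress target, at log2 3.45 and 2.66. Of the list, 5 passed at 94 dB without replicates 3 and 4 of that group, where 7.97% of all genes did.

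The genes upstream of the family were examined in 2 lists. Of 26 tested cytokine, JAK-STAT and cyclic AMP inducers, 6 were higher and 3 lower at 94 dB, where 26.1% of all genes passed, with a median log2 fold change of 0.10 beside -0.02 for all genes. They included Srf (log2 0.44) and Socs3, the feedback inhibitor of cytokine signalling (log2 0.45), on the higher side and Hif1a (log2 -0.27) on the lower side. Leaving out 94 dB replicates 3 and 4 left 2 past the threshold, where 7.97% of all genes passed. Trend-removed, none of the 26 passed by edgeR, where 16% of all genes did, and 5 had an unadjusted p under 0.05. At 105 dB none passed by edgeR, where 1.62% of all genes did, and 4 had an unadjusted p under 0.05. DESeq2 called 2 of the 26, where it called 5.54% of the genes it tested. Of 32 kinases, ligases and cofactors that act on C/EBP proteins, 4 were higher and 6 lower at 94 dB, near the share of 26.1% over all genes, with a median of 0.06. Of these 32, 4 were higher and 3 lower trend-removed, where 16% of all genes passed. Without 94 dB replicates 3 and 4, 3 of them passed, where 7.97% of all genes did. The one that passed at both levels was Trib1, whose protein brings C/EBP alpha to the ubiquitin ligase COP1, at 24.3 ± 3.92 CPM at 70 dB, 37.0 ± 1.60 CPM at 94 dB and 37.9 ± 4.46 CPM at 105 dB (log2 0.61 and 0.64). Prkacb, a catalytic subunit of protein kinase A, was lower at 94 dB (log2 -0.48), Gsk3b was lower (log2 -0.33) and Gsk3a higher (log2 0.35). Trend-removed, Prkacb still passed at log2 -0.31, while Gsk3b (-0.17) and Gsk3a (0.09) did not.

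Known targets of C/EBP factors were examined in 3 lists. Of 29 tested acute phase and inflammatory genes, 8 were higher and 2 lower at 94 dB, where 26.1% of all genes passed, and 2 were higher at 105 dB, where 1.62% did. The medians were 0.17 and 0.11 beside -0.02 and 0.00 for all genes. Trend-removed, 3 were higher and 1 lower at 94 dB, where 16% of all genes passed. Cd14, a receptor for bacterial lipopolysaccharide, passed at both levels, with 19.1 ± 1.15 CPM at 70 dB, 28.4 ± 3.33 CPM at 94 dB and 25.3 ± 2.56 CPM at 105 dB. Its 105 dB call was narrow (edgeR adjusted p = 0.0445) and was lost in 9 of 23 alternatives, 8 of them with a single library left out. The metallothionein gene Mt1 passed at 105 dB and not at 94 dB, with 152.8 ± 27.2 CPM at 70 dB, 155.9 ± 13.3 CPM at 94 dB and 265.0 ± 56.2 CPM at 105 dB, and its difference between 105 and 94 dB was log2 0.77 (edgeR adjusted p = 0.00564). The 105 dB call of Mt1 was lost in 2 of 23 alternatives, 1 of them with 70 dB replicate 4 left out. Mt2, the other metallothionein gene of the list, passed instead at 94 dB (log2 1.28) and not at 105 dB (log2 1.21). Cp, which encodes the copper protein ceruloplasmin, was lower at 94 dB (log2 -0.37), and -0.14 and not past the threshold trend-removed. Only 2 of the list passed at 94 dB without 94 dB replicates 3 and 4, where 7.97% of all genes did. The number ranged from 5 to 10 as single libraries were left out, with drops of over 1.5 times without 70 dB replicates 3 or 4 or 94 dB replicates 2 or 4. A further 7 of the 36 list genes in the table were too low to test.

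Of 21 granulocyte targets, 6 were higher and none lower by edgeR at 94 dB, where 13.9% of all genes were higher and 12.2% lower, with a median of 0.33 (0.17 trend-removed). Of the same 21, DESeq2 called 9, where it called 30.9% of the genes it tested, and 9 had an unadjusted p under 0.05. Mpo, the myeloperoxidase gene, was at log2 0.45 and 0.48 against 70 dB and was the one that passed at 105 dB, where 1.62% of all genes did. Trend-removed, Mpo passed at neither level (log2 0.30 and 0.49, edgeR adjusted p = 0.123 and 0.0612), and its 105 dB call was lost in 9 of 23 alternatives. Prtn3, a neutrophil protease gene, was at log2 0.69 at 94 dB and S100a9 at 0.54. Trend-removed, Prtn3 (log2 0.33) did not pass and S100a9 (log2 0.46) did. All 13 neutrophil markers whose sums are given above are among these 21 genes. The number of granulocyte targets called at 94 dB was 2 trend-removed and 1 without 94 dB replicates 3 and 4, where 16% and 7.97% of all genes were called. That number ranged from 2 to 13 as single libraries were left out. Of 21 tested adipocyte and metabolic targets, 3 were higher and 2 lower at 94 dB, where 26.1% of all genes passed, with a median of 0.13. Trend-removed, 1 was higher, where 10.2% of all genes were, and the median was 0.07. Agpat2, an enzyme of triglyceride synthesis, was the one with the smallest p (log2 0.63, and 0.37 trend-removed, both past the threshold). In the fit without 94 dB replicates 3 and 4, 3 of the list passed at 94 dB, where 7.97% of all genes did. At 105 dB none of the 21 passed by edgeR or by DESeq2, where 1.62% and 5.54% of the genes each tested did. Of the 21, 1 had an unadjusted p under 0.05.

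Ribosome biogenesis, the process in which the Cebpz protein is known to act, was followed in 24 genes. At 94 dB 6 were higher and 1 lower (median 0.04), where 26.1% of all genes passed, and at 105 dB 3 were higher (median 0.17), where 1.62% did. Between 105 and 94 dB 7 were higher and 2 lower, where 17.3% of all genes passed, with a median of 0.11 beside 0.00 for all genes. Trend-removed, 4 were higher between 105 and 94 dB, where 4.64% of all genes were. Without 94 dB replicates 3 and 4 the number called by edgeR was 0, in a fit that called 217 of all genes, or 1.07%. Nop58, a core protein of small nucleolar ribonucleoproteins, averaged 67.6 ± 2.72 CPM at 105 dB and 51.5 ± 4.28 CPM at 94 dB (log2 0.39, edgeR adjusted p = 0.00236), and Npm1, the nucleophosmin gene, was also higher at 105 dB (log2 0.34, edgeR adjusted p = 0.0108), a call lost trend-removed (log2 0.23, edgeR adjusted p = 0.0897). Fbl, which encodes fibrillarin, passed against 70 dB at both levels, at log2 0.41 and 0.43. Without 94 dB replicates 3 and 4, 1 of the list passed at 94 dB and 4 at 105 dB, where 7.97% and 1.69% of all genes did. The lists were not tested as sets, and nothing is called particular to them from these counts.

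**Figure D5:**
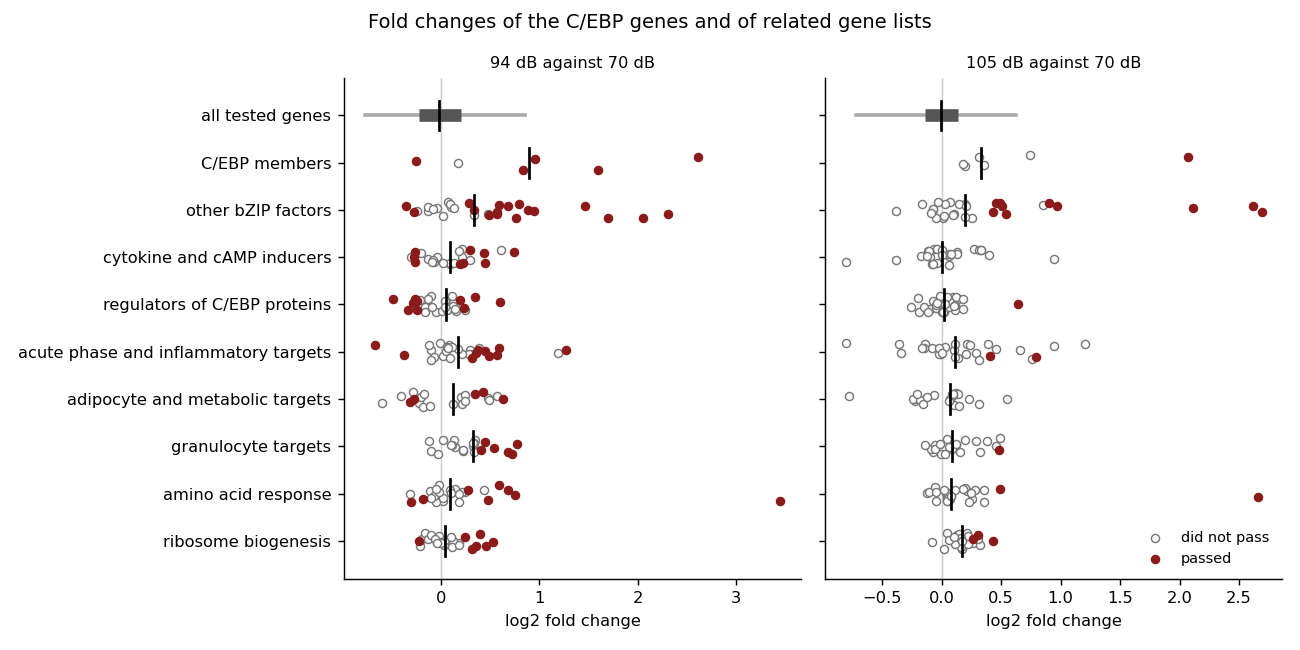
Log2 fold change (horizontal axes) of the C/EBP genes and of the genes in 8 related lists for 94 dB against 70 dB (left) and 105 dB against 70 dB (right). Filled points passed the edgeR threshold, open points did not, black ticks are list medians, and the top row gives the median, middle 50% and middle 95% of all tested genes. The bZIP list, written with earlier results on Fos and Jun genes known, has its median at 0.34 in the left panel and 0.19 in the right. The granulocyte median is 0.33 in the left panel, and the ribosome biogenesis median is 0.17 in the right.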

How the data were processed

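Per the labels' protocols, TRIzol was used on the cochleae and libraries were prepared from 1 µg of total RNA (Illumina TruSeq RNA kit). The authors deposited whole-number read counts per Ensembl gene, not normalised. The submitters' processing notes name mm10 as the build, and featureCounts 1.5.0-p3, STAR and CASAVA as tools. How multiply aligned reads and strand were handled is not given in the sources used here, nor are parameters and annotation. Counts cannot separate overlapping genes without strand. Groups and replicate numbers came from sample titles.

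The deposited counts went into edgeR 4.0.16 (R 4.3.3): filterByExpr with a minimum count of 10 (19497 of 35496 genes, 99.9% of counts), TMM factors, 1 mean per group over all 12 libraries (9 residual degrees of freedom), robust glmQLFit and glmQLFTest. Benjamini-Hochberg adjustment ran over all tested genes, and calls were made at 0.05. A floor of 3 counts is 0.0703 to 0.0966 CPM and covers counting error only. Positions, exons and GC content are from GENCODE M21 on GRCm38, which named 35474 of the genes. Within groups, r of log2 CPM was 0.984 to 0.991 and no libraries were duplicates.

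The trend on GC content and exon length was fitted per library with mgcv 1.9.3 and entered as an offset. The other alternatives were DESeq2 1.42.0, its size factors, upper-quartile factors, no filter, 1 CPM in 4 libraries, the 8 libraries compared, a replicate block, each library left out, and 94 dB replicates 3 and 4 left out. The scripts were tested on simulated counts. The members and lists were chosen with earlier results of these data known. Named genes are the members, overlapping genes, and the neighbours and 5 nearest profiles of members past the threshold at both levels. Per list, they are the 3 smallest p among those called at each noise level and up to 4 called between them. Not all are printed, and Mt2 is added beside Mt1.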

Additional observations from a re-analysis of the deposited data

Results flagged for a closer look

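With 27 groups of 4 libraries examined, chance alone marks about 1 in 20, and 1 library, 105 dB replicate 3, stood far from the rest of its group in 2 genes. Cebpe was 33.5 CPM in 105 dB replicate 3, against 26.0 to 26.6 CPM in the other libraries of that group. Spidr, which overlaps Cebpd, was 10.8 CPM in that library, against 14.6 to 14.7 CPM in the others.

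The difference between 105 and 94 dB, the same contrast as described above, passed the threshold for 5 members (edgeR, adjusted over all genes). Of all genes, 17.3% passed in it. The effect at 105 dB less that at 94 dB was log2 -0.49 for Cebpa, -0.54 for Cebpb, -0.86 for Cebpd, -0.64 for Cebpe and 0.42 for Cebpz. The 94 dB libraries took part in the choice of the family, so these tests are not independent of it. Removing the GC and length trend ended the first 4 calls, with Cebpd hardly smaller at -0.81, and kept the last. Leaving out 94 dB replicates 3 and 4 ended all 5 calls, with Cebpz at 0.33.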

How the results depend on the processing

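Cebpa, Cebpb and Cebpd at 94 dB and Cebpb at 105 dB, each against 70 dB, kept their direction and call in all 23 alternatives. With the GC and length trend removed, the log2 values against 70 dB that changed side were Cebpg 0.36 and Cebpz -0.081 at 94 dB, and those between 105 and 94 dB were Cebpa -0.16, Cebpb -0.068, Cebpd -0.81 and Cebpe -0.32. No pairing by replicate number was seen (r of deviations -0.149 to 0.182 for the same number, -0.187 to 0.147 for others), which does not show that none exists. In the sample titles 105 dB replicates 3 and 4 are named C4 and C5, so matching by title number would differ there and was not tried. A replicate block gave Cebpa 0.35 (called) at 105 dB against 70 dB and Cebpd -0.79 (not called) between noise levels, and 479 genes called at 105 dB against 70 dB. The block with the trend removed gave Cebpg 0.36 and Cebpz -0.079 at 94 dB, Cebpa 0.33 and Cebpg 0.26 (both called) at 105 dB, and Cebpa -0.16, Cebpb -0.047, Cebpd -0.75, Cebpe -0.31 and, turned round, Srf 0.26 between them. Without 94 dB replicates 3 and 4 the values were Cebpz -0.15 at 94 dB, Cebpd 0.75 (called) at 105 dB, and Cebpa -0.41, Cebpb -0.36, Cebpd -0.27, Cebpe -0.39 and Cebpz 0.33 (none called) between them. With the trend also removed, a setting chosen after seeing the data, they were Cebpe 0.44 (not called), Cebpg 0.39 (called), Cebpz -0.022 and, turned round, Pcx -0.040 at 94 dB, Cebpd 0.77 (called) at 105 dB, and Cebpa -0.18, Cebpb -0.074, Cebpd -0.23, Cebpe -0.22 and Cebpz 0.25 (none called) between them. In the 8 libraries compared, Cebpz was -0.24 (not called) at 94 dB, Cebpd 0.74 (called) at 105 dB, and Cebpb -0.54 and Cebpd -0.86 (not called) between them. With no filter, Cebpa was 0.36 (called) at 105 dB, and Cebpb -0.53, Cebpd -0.85 and Cebpe -0.64 were not called between noise levels. Upper-quartile factors gave Cebpd -0.84 (not called) and DESeq2 gave Cebpa 0.35 (called) at 105 dB.

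Leaving out single libraries gave Cebpg 0.14 to 0.25 at 94 dB (called without 70 dB replicate 3), Cebpz -0.29 to -0.20 (lost without 70 dB replicates 2 or 3 or 94 dB replicates 3 or 4), Cebpa 0.30 to 0.43 at 105 dB (called without 70 dB replicate 2, 94 dB replicate 1 or 105 dB replicate 4) and Cebpd 0.69 to 0.85 (called without 94 dB replicate 1). Between noise levels it gave Cebpb -0.65 to -0.36 (lost in 10 of 12), Cebpd -1.07 to -0.65 (lost in 11 of 12) and Cebpe -0.79 to -0.52 (lost without 94 dB replicate 3 or 105 dB replicates 2 or 4). Numbers called in the lists that moved by over 1.5 times at 94 dB were 6 to 11 regulators (without 94 dB replicate 4), 2 to 6 adipocyte genes (70 dB replicates 3 or 4, 94 dB replicates 2 or 4), 4 to 8 ribosome biogenesis genes (70 dB replicate 3, 94 dB replicate 4) and 2 to 13 granulocyte genes (70 dB replicates 1, 3 or 4, any 94 dB library). At 105 dB they were 0 to 2 acute phase genes (70 dB replicates 1, 3 or 4, 94 dB replicates 2 or 4, 105 dB replicates 1 or 2), 0 to 3 granulocyte genes (70 or 94 dB replicates 1 or 4, any 105 dB library), 0 to 5 ribosome biogenesis genes (70 dB replicates 2 or 4, any 105 dB library) and 0 to 1 inducers (105 dB replicate 3). Between noise levels they were 2 to 6 inducers (94 dB replicate 3, 105 dB replicates 1, 2 or 4), 3 to 6 regulators (94 dB replicates 3 or 4), 1 to 8 granulocyte genes (any 94 dB library, 105 dB replicates 2, 3 or 4), 2 to 6 amino acid response genes (94 dB replicates 3 or 4, 105 dB replicates 2 or 4), 7 to 13 bZIP genes (94 dB replicate 3) and 2 to 9 ribosome biogenesis genes (94 dB replicates 3 or 4, 105 dB replicates 1 or 2).

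Over all genes, 5085 were called at 94 dB against 70 dB, 3128 with the trend removed, 3385 with the block as well, 1610 without the 94 dB pair and 1073 with both changes. Naming the libraries that moved these totals by over 1.5 times, at 105 dB against 70 dB they were 70 dB replicates 1 and 4 and 105 dB replicates 2 and 3, and between noise levels 94 dB replicates 3 and 4 and 105 dB replicates 2 and 4. At 105 dB against 70 dB 316 were called, 523 with no filter, 735 with block and trend, 481 without the pair and trend, 891 by DESeq2 and 126 to 399 without single libraries. Between noise levels 3372 were called, 1831, 1975, 217 and 113 in the order used for 94 dB, and 1650 to 3798 without single libraries. Of calls, 53.4% were higher at 94 dB and 68.7% at 105 dB, and 45% and 58.3% with upper-quartile factors. The cause of these changes was not tested. Members had at least 554 reads per library.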
